A study of Mus musculus with 6 samples.

Results

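The annexins are a family of proteins that bind phospholipid membranes when calcium is present. The 10 family members described here (Anxa1 to Anxa9 and Anxa11) were looked up by gene symbol among the 55487 rows of the deposited table, and each symbol matched 1 row. As a family they were selected on a difference between the genotypes already seen in these libraries, so their knockout and heterozygous values are a description and carry no test. All 10 were among the 18227 rows with a mean of at least 10 normalized reads that entered the fit. The remaining annexin symbols of the table were near 0: Anxa10 had no read in any library, which allows up to 3 reads per library, and Anxa13 had 0 to 10 reads.

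The cells came from the subventricular zone, the stem cell niche beside the lateral ventricles of the adult mouse brain, and were sorted for a yellow fluorescent reporter (R26;EYFP) switched on by NestinCreERT2. This Cre recombinase is made where Nestin, a gene of neural stem and progenitor cells, is active, and it works once tamoxifen is given. Both groups carried these alleles on a mixed C57BL/6;Sv/129;FVB/N background. All mice were 6 to 10 weeks old at the start and had tamoxifen at 200 mg/kg on each of 5 days. Cells were taken 10 days later. The 3 heterozygous libraries were E2F1(+/-);E2F3(F/+) and the 3 knockout libraries E2F1(-/-);E2F3(F/F). E2F1 and E2F3 are transcription factors that drive genes of the cell cycle. E2F1 loss is written as a plain null allele and E2F3 loss as a floxed one, and the heterozygous group too carries an allele of each kind, so the effects of E2F1 and E2F3 loss cannot be told apart. Each library pools several mice and at least 200000 sorted cells, so the spread between libraries is a spread between pools.

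Annexins share a core of repeats that holds the calcium sites and have a variable tail in front of it. The tails of Anxa1, Anxa2 and Anxa11 bind small S100 proteins. Members of the family take part in resealing damaged membranes, in moving vesicles, and in binding phosphatidylserine, a lipid that dying cells expose. In brain tissue several annexins are best known from glial, ependymal and vessel cells rather than from neurons.

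Of the 10 annexins, 8 had a RefSeq promoter on GRCm38.p6 (11 windows of 300 bases, 250 before to 50 after a start). None of the 11 windows held any of the E2F letters TTTCCCGC, TTTGGCGC, TTTCGCGC or TTTGCCGC on either strand, which 2.26% of the 32851 promoter windows compared did. This says only that those letters are not in these windows. The letters TATAAA on the gene's own strand stood in 2 of the 11 windows, those of Anxa1 and Anxa2, and in 8.32% of all windows. The bases upstream of these starts are shown because the promoters of this pair differ in base content and hold the only TATAAA matches among the 11 windows, with those letters in capitals. The Anxa1 match begins 32 bases before the start and the Anxa2 match 17 bases before it, and their windows hold 47.3% and 63.7% G or C. The Anxa1 stretch lies at chr19:20390672-20390921 on the minus strand and the Anxa2 stretch at chr9:69453433-69453682 on the plus strand.
Anxa1: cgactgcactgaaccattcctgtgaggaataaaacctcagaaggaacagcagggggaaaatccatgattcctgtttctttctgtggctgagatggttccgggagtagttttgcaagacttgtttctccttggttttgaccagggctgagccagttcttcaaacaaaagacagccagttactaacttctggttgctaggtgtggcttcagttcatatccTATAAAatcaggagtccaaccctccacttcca
Anxa2: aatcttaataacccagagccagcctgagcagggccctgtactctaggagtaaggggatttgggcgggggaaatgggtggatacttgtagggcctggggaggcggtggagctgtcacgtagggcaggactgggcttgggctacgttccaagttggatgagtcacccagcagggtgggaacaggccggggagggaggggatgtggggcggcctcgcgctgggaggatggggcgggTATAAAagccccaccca
The promoter of Anxa11, the annexin with the highest fold difference, holds neither set of letters and has 25 CG steps, against a median of 7 over all windows. Windows of the other annexins held 3 to 36 CG steps, and Anxa9 had windows at both ends of that range. The 250 upstream bases of Anxa11 lie at chr14:25841905-25842154 on the plus strand.
Anxa11: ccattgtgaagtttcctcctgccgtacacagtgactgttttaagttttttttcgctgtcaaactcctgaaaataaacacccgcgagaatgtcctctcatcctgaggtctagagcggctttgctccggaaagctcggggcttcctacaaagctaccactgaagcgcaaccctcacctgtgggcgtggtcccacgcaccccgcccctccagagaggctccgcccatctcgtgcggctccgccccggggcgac

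Reads assigned to genes ranged from 19798675 to 25982361 per library. The targeted E2f1 transcript was at 1030 to 1388 normalized reads in heterozygous and 375 to 516 in knockout libraries. E2f3 was at 205 to 293 and 231 to 324, which does not check its deletion, because reads over the whole gene are counted. Markers of other cells did not sit evenly over the libraries. Summed endothelial markers were 30643 normalized reads in knockout A against 3542 to 11208 in the other 5 libraries, and blood markers 21807 against 683 to 5381. Summed choroid plexus markers were 48601 in heterozygous A, nearly all of it Ttr (44005), against 774 to 3650 elsewhere. In bulk RNA, a change in the number of cells of a type and a change in the RNA per cell cannot be told apart.

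Levels per kilobase of exon put the annexins in a steep order. Each length joins all annotated exons of a gene, so levels and shares compared between genes depend on that choice. In heterozygous cells Anxa5 was at 3460 ± 213 normalized reads per kb (SD, n = 3), Anxa6 at 1195 ± 43.4 and Anxa2 at 633 ± 70.3, and the ranges of these 3 did not overlap. The middle group ran from Anxa7 at 161 ± 20.2 through Anxa4 (129 ± 25), Anxa3 (86.9 ± 41.9) and Anxa8 (69.9 ± 36.4) to Anxa1 at 54.3 ± 11.4. Neighbours in that group overlapped each other. Anxa9 (23.0 ± 8.40) and Anxa11 (14.4 ± 3.59) were lowest and overlapped. Anxa5 alone made up a mean of 59.4% of the summed level of the 10 in heterozygous and 61.4% in knockout libraries. In knockout cells Anxa5 stayed at the top, at 7950 ± 2105 per kb, while Anxa6 (2152 ± 366) and Anxa2 (1611 ± 615) overlapped. Summed over the 10 genes, the level was 5587, 6031 and 5862 normalized reads per kb in heterozygous A, B and C and 15465, 13315 and 9809 in knockout A, B and C, so the groups did not overlap.

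All 10 annexins had a positive log2 difference between knockout and heterozygous cells, with a median of 1.0 against 0.05 over all genes tested. In 6 of the 10 (Anxa2, Anxa4, Anxa5, Anxa6, Anxa7 and Anxa11) every knockout library lay above every heterozygous one, which held for 18.5% of tested genes. In the other 4, knockout C fell within or below the heterozygous range. In the limma fit over all genes, 5 of 10 were called higher at adjusted p under 0.05 (Anxa2, Anxa5, Anxa6, Anxa7 and Anxa11) and 0 lower, where 7.23% of tested genes were called higher and 8.59% lower. Since this contrast chose the family, nothing is read from that count. It was 1 without heterozygous A, 0 without heterozygous B or knockout B, and 9 without knockout C. Calls of a higher level over all tested genes, 1318 in the main fit, moved the same way. They numbered 325 with heterozygous A left out, 166 with heterozygous B, 109 with knockout B and 1956 with knockout C. By the authors' deposited table, every annexin but Anxa3 and Anxa9 (8 of 10) had an adjusted p under 0.05 with the higher level in knockout, as did 7.44% of its genes with an adjusted p.

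**Figure D1:**
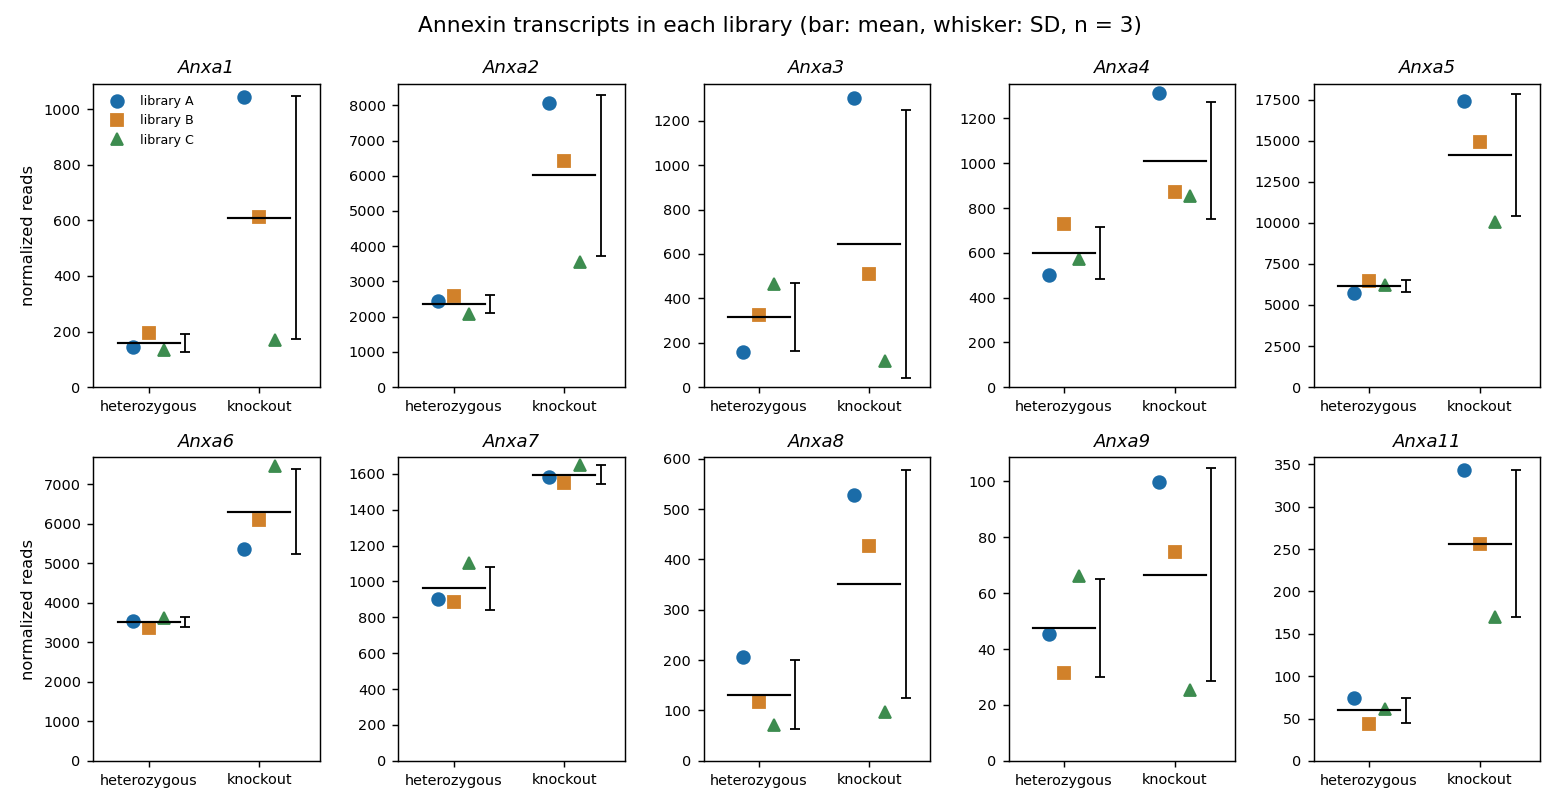
Normalized reads (y axis, starting at 0 and scaled per gene) of each annexin in the 3 heterozygous and 3 knockout libraries (points), with the mean as a bar and the SD as a whisker. A letter names a library within its genotype and is not read as a pairing here. Anxa1, Anxa2, Anxa5 and Anxa11 are highest in knockout A and lowest among the knockouts in knockout C, and Anxa6 has the opposite order.

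Anxa5, Anxa2 and Anxa6 are the abundant annexins of these cells. Anxa5 (ENSMUSG00000027712, GRCm38 chromosome 3, 36448923 to 36475894, minus strand) encodes the phosphatidylserine binder used in the laboratory to stain dying cells. It was at 5734, 6477 and 6235 normalized reads in heterozygous A, B and C and at 17406, 14923 and 10053 in knockout A, B and C. The heterozygous libraries agreed closely and every knockout library was higher, with knockout C nearest to them. The log2 difference was 1.17 ± 0.23 (SE).

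Anxa2 (ENSMUSG00000032231, chromosome 9, 69453620 to 69491795, plus strand) encodes the partner of S100a10 in a complex at the inner face of the cell membrane. Its values were 2437, 2578 and 2070 normalized reads in the heterozygous and 8073, 6418 and 3540 in the knockout libraries. The groups did not overlap, and knockout A was 2.28 times as high as knockout C. The log2 difference was 1.27 ± 0.29 (SE).

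Anxa6 (ENSMUSG00000018340, chromosome 11, 54979108 to 55033445, minus strand) encodes the family member with a duplicated core. It stood at 3533, 3362 and 3610 normalized reads in heterozygous A, B and C and at 5362, 6082 and 7470 in knockout A, B and C. Its heterozygous libraries had the smallest spread of all 10 annexins, a coefficient of variation of 3.63%. Here knockout C was the highest library and knockout A the lowest of the 3, the reverse of Anxa5 and Anxa2. The log2 difference was 0.84 ± 0.18 (SE).

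Anxa7 (ENSMUSG00000021814, chromosome 14, 20455260 to 20480133, minus strand), first described as synexin, a protein that brings vesicle membranes together, had the most even knockout values. They were 1584, 1548 and 1651 normalized reads, a coefficient of variation of 3.31%, above 901, 884 and 1101 in heterozygous A, B and C. The log2 difference was 0.74 ± 0.18 (SE) and ran from 0.68 to 0.84 when any 1 library was left out. Anxa4 (ENSMUSG00000029994, chromosome 6, 86736840 to 86793584, minus strand), known from secretory epithelia, was at 499, 727 and 573 in heterozygous and at 1314, 871 and 852 in knockout libraries. The groups did not overlap, but knockout B and C lay close to heterozygous B, and the log2 difference was 0.74 ± 0.25 (SE).

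Anxa11 (ENSMUSG00000021866, chromosome 14, 25842156 to 25886804, plus strand) encodes an annexin with a long tail that links RNA granules to lysosomes. It had the highest fold difference of the 10 and the lowest heterozygous level per kb. Its heterozygous libraries were at 73.7, 44.1 and 61.0 normalized reads and its knockout libraries at 343, 256 and 170. The groups were well apart, with a log2 difference of 2.06 ± 0.39 (SE), from 1.82 to 2.33 with any 1 library left out. Anxa11os, an antisense gene, shares 113 exon bases with Anxa11, and the library kit as named in the labels gives no strand. It had 0, 0 and 6 reads in heterozygous A, B and C and 14, 12 and 3 in knockout A, B and C.

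Anxa1, Anxa3, Anxa8 and Anxa9 were the members whose groups overlapped, in each case through knockout C. Anxa1 (ENSMUSG00000024659, chromosome 19, 20373428 to 20390944, minus strand) encodes a glucocorticoid-responsive protein that dampens inflammation. It stood at 143, 196 and 135 normalized reads in heterozygous A, B and C, at 1044 and 612 in knockout A and B, and at 170 in knockout C. Knockout C thus lay inside the heterozygous range. The log2 difference was 1.61 ± 0.57 (SE), 1.05 without knockout A and 2.35 without knockout C.

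Anxa3 (ENSMUSG00000029484, chromosome 5, 96793339 to 96845966, plus strand), an annexin abundant in neutrophils, spread most. Its knockout libraries were at 1304, 510 and 117 normalized reads, an 11.1-fold range, and its heterozygous libraries at 160, 323 and 466. Knockout C was the lowest of all 6 libraries. The log2 difference of 0.56 ± 0.75 (SE) turned to -0.24 without knockout A and was 1.49 without knockout C.

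Anxa8 (ENSMUSG00000021950, chromosome 14, 34085981 to 34100571, plus strand) was at 206, 118 and 71.0 normalized reads in heterozygous and at 529, 427 and 96.1 in knockout libraries. Its log2 difference was 1.21 ± 0.63 (SE), 0.76 without knockout A and 1.98 without knockout C. Anxa9 (ENSMUSG00000015702, chromosome 3, 95296096 to 95307176, minus strand), which has lost most of the family's calcium sites, was at 45.4, 31.4 and 66.0 against 99.8, 74.8 and 25.3. Its log2 difference of 0.33 ± 0.59 (SE) was -0.06 without knockout A, so for Anxa3 and Anxa9 the direction rested on that library.

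**Figure D2:**
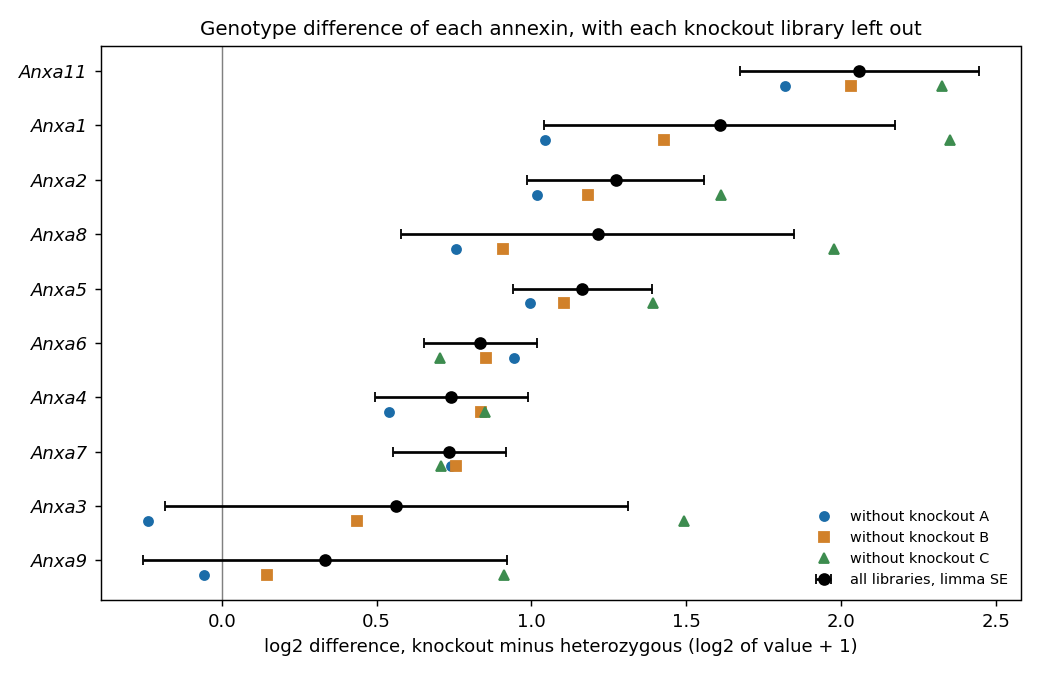
Log2 difference of each annexin between knockout and heterozygous libraries (x axis) over all 6 libraries (black, with limma SE) and with each knockout library left out (coloured). Anxa11 stays between 1.82 and 2.33, while Anxa3 and Anxa9 cross 0 without knockout A.

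The family did not follow a single pattern over the knockout libraries. In 8 of 10 annexins the level was highest in knockout A, intermediate in B and lowest in C, an order found in 25.8% of tested genes and in 49.4% of the 1318 genes called higher. Anxa6 and Anxa7 were highest in knockout C. Marker lists of other cell types also differed in their order over the knockout libraries. Ependymal markers summed to 76743 in knockout A, 46770 in B and 18760 in C, against 13103 to 15108 in heterozygous libraries, and 7 of 11 tested ependymal genes were called higher by limma. Endothelial, mural, choroid plexus and blood sums also ran from knockout A down to C. Among 10 endothelial genes the calls were 0 by limma, 0 by edgeR and 4 by DESeq2, with 2 at an unadjusted p under 0.05. For the 8 mural genes they were 2 by limma, both higher in knockout, 3 by edgeR and 5 by DESeq2. Summed astrocyte and quiescent stem cell markers had the reverse order, 670166, 936165 and 1024683 in knockout A, B and C, against 488607 to 693897 in heterozygous libraries. Of these 12 genes 2 were called higher, and neither had the order of the sum. Gfap was at 10666, 13966 and 9176 in knockout A, B and C, and Id3 at 11829, 9189 and 11169. Oligodendrocyte sums (94478, 76187 and 90268 in knockout A, B and C) and fibroblast and meninges sums (2131, 1751 and 3050) had neither order. Much of the latter sum in knockout C was Pdgfra, at 1851 there and at 252 and 182 in knockout A and B. The mean log2 level of the fibroblast and meninges list did run from knockout A down to C. It was 1.786, 1.255 and 0.451 above the heterozygous mean. All 9 neuroblast and all 12 mitosis genes tested were called lower. Of the listed markers of other cells, Cd3e and Ly6g of the blood list were at 0 in all 6 libraries and no other was. Microglia and macrophage sums, 2675, 3976 and 9089 in heterozygous A, B and C and 13159, 3943 and 4230 in knockout A, B and C, had the same heterozygous order as Anxa3 and were likewise highest in knockout A, but knockout C was not their lowest library. Of their 8 tested genes 0 were called by limma, edgeR or DESeq2 and 0 had an unadjusted p under 0.05. Heterozygous A, where Ttr stood out, had the highest heterozygous value of Anxa8 and Anxa11 and the lowest of Anxa3, Anxa4 and Anxa5. The part of these cell types in the annexin values was not tested.

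**Figure D3:**
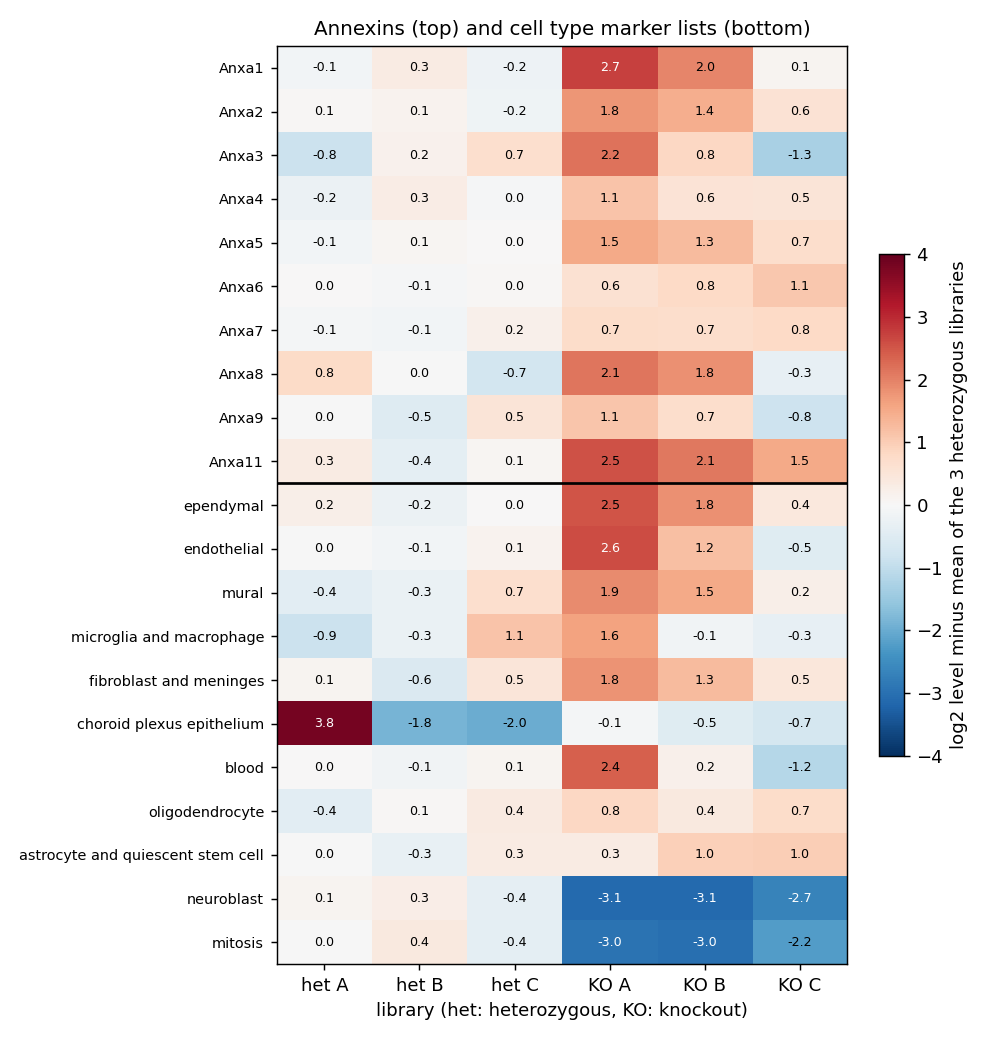
Each cell of the map is a log2 level minus the mean of the 3 heterozygous libraries, for the 10 annexins (top) and for the mean over each cell type marker list (bottom), with libraries in columns and red for higher. Anxa1, Anxa2, Anxa5 and the ependymal list are all highest in knockout A. So are the endothelial, mural, blood, fibroblast, microglia and oligodendrocyte lists. Anxa6 and the astrocyte list are higher in knockout C than in A, and the choroid plexus list stands out in heterozygous A.

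The genes most like each annexin over the 6 libraries were sought for the 6 annexins with separated groups, by Pearson's r of log2(value + 1) against 14125 named genes with a mean of at least 50. The closest was Ppp1r36 for Anxa2 (r = 0.999), Cryab, a small heat shock protein gene, for Anxa4 (0.995), Megf6 for Anxa5 (0.998) and Adora2b, an adenosine receptor gene, for Anxa6 (0.993). Atp6v0c-ps2, a pseudogene, was closest to Anxa7 (0.997), followed by the ion pump regulator gene Fxyd1 (0.997). A930005H10Rik (0.998) and the lactate transporter gene Slc16a1 (0.997) were closest to Anxa11. The other second places went to Neu2 (Anxa2), Syde1 (Anxa4), Dync2li1 (Anxa5) and Creb3l4 (Anxa6). Between 104 and 454 genes had r above 0.95 with a given annexin, all over the same 6 libraries, so a high r singles out no gene.

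Genes that work with annexins were then read from the same fit. These lists group genes by known function and hold no annexin, but they too were drawn up with earlier results of these libraries known. Among 14 tested genes for annexin binding partners and associated proteins 4 rose and none fell in knockout cells, a share to set against the 15.8% of all tested genes called in either direction. The median log2 difference was 0.98. S100a6, a calcium sensor that binds the Anxa11 tail, rose to 3197 ± 309 normalized reads in knockout from 1539 ± 209 in heterozygous cells (SD, n = 3 each; limma adjusted p = 0.00777) and stayed called with any 1 library left out. S100a1 rose 1.86-fold (limma adjusted p = 0.0175), Ahnak, a giant scaffold protein that binds the Anxa2 complex, 2.63-fold (adjusted p = 0.0353) and Capg, an actin-capping protein, 2.80-fold (adjusted p = 0.0365). Leaving out heterozygous A or B or knockout B left 1 gene of the list called, and without knockout A 2 rose and 1 fell. Calls over all tested genes, 2883 in the main fit, also fell in these refits, to 906, 635, 697 and 2230 in that order.

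S100a10, the partner of Anxa2, did not follow it. It was at 1071, 2152 and 1007 normalized reads in heterozygous A, B and C and at 1078, 678 and 303 in knockout A, B and C, so the groups overlapped. The log2 difference was -1.13 ± 0.45 (SE, limma unadjusted p = 0.0325, adjusted p = 0.115), and it passed only without knockout A (-1.55, limma adjusted p = 0.0368). Per kilobase of exon, S100a10 was 1.35, 2.57 and 1.5 times as abundant as Anxa2 in heterozygous A, B and C and 0.411, 0.326 and 0.263 times in knockout A, B and C. On this per kb scale the partner's transcript lay above Anxa2 in every heterozygous library and below it in every knockout library. In normalized reads it lay below Anxa2 in every library of both genotypes. Which of the pair is the more abundant in heterozygous cells thus depends on the exon lengths used. Because Anxa2 belongs to the chosen family, the ratio of the pair carries no test. S100a11, which binds the Anxa1 tail, was at 447, 458 and 529 in heterozygous libraries and at 2384, 1045 and 400 in knockout A, B and C. It overlapped through knockout C, as Anxa1 did, with a log2 difference of 1.07 ± 0.52 (SE, limma adjusted p = 0.182; 0.00321 without knockout C).

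Among 24 tested genes of calcium-dependent membrane repair and membrane binding 5 rose and 1 fell (median log2 difference 0.68), beside 7.23% of all tested genes called higher and 8.59% lower. Capns1, the small subunit of calpains, rose to 2241 ± 279 normalized reads from 1209 ± 140 (SD, n = 3 each; limma adjusted p = 0.0163). Ehd2, a membrane-bending protein of caveolae, rose 3.81-fold (limma adjusted p = 0.0167). Myof, a ferlin that acts in membrane fusion and repair, was at 14.1, 0.980 and 9.0 in heterozygous and at 207, 151 and 41.5 in knockout libraries (limma adjusted p = 0.0188). Cavin1, a coat protein of caveolae, rose 2.62-fold (limma adjusted p = 0.0315) and Chmp4b, a subunit of the ESCRT-III membrane-cutting complex, 1.76-fold (adjusted p = 0.0489). Cpne4, a neuronal copine, fell from 25.5 ± 5.23 to 2.02 ± 3.5 (limma adjusted p = 0.034), with knockout A and B at 0, and was not called by edgeR (adjusted p = 0.0633). The number called was 1 without heterozygous A, 0 without heterozygous B or without knockout B, and 3 without heterozygous C or knockout A.

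Of 24 tested genes that expose or recognise phosphatidylserine, the lipid Anxa5 binds, 2 rose and 2 fell (median log2 difference 0.41). That share of 4 in 24 is near the 15.8% called over all tested genes. Atp8a2, a neuronal flippase that keeps the lipid on the inner face of the membrane, fell to 73.4 ± 43.1 normalized reads from 338 ± 41.3 (SD, n = 3 each; limma adjusted p = 0.00909). Gas6, a bridge between the lipid and its receptors, rose 2.21-fold (limma adjusted p = 0.0326) and Adgrb1, an engulfment receptor, 1.89-fold (adjusted p = 0.0374). Gas6 had the order of Anxa5 in the knockout libraries (9501, 8032 and 4468) and Adgrb1 that of Anxa6 (1069, 1407 and 1810). The count was 1 without heterozygous A or knockout B and 0 without heterozygous B.

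The receptors of Anxa1 were barely seen. Fpr1 and Fpr3 had no read in any library, which allows up to 3 reads per library. Fpr2, the main formyl peptide receptor for Anxa1, had 9 reads in knockout A, 7 in knockout B and none in the other 4 libraries. Of 12 tested genes in the list of Anxa1 receptors and lipid mediator enzymes, 1 rose and 1 fell (median log2 difference 0.73), again near the 15.8% called over all tested genes. Ptgds, a prostaglandin D synthase, rose 1.83-fold (limma adjusted p = 0.049; 0.0561 by edgeR), and Fkbp5, a glucocorticoid-induced chaperone, fell 2.03-fold (adjusted p = 0.0369). Neither passed when heterozygous A, heterozygous B or knockout B was left out. Fkbp5 also did not pass without heterozygous C, without knockout C, or with edgeR under upper-quartile scaling.

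In the plasminogen activation list, whose enzymes act at the Anxa2 complex on the cell surface, the 7 tested genes gave 0 calls by limma, 0 by edgeR and 1 by DESeq2, and 0 reached an unadjusted p under 0.05. The smallest p belonged to Serpine2, a secreted protease inhibitor, at 19010 ± 3800 in heterozygous and 26691 ± 5332 in knockout cells (SD, n = 3 each; limma adjusted p = 0.179).

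**Figure D4:**
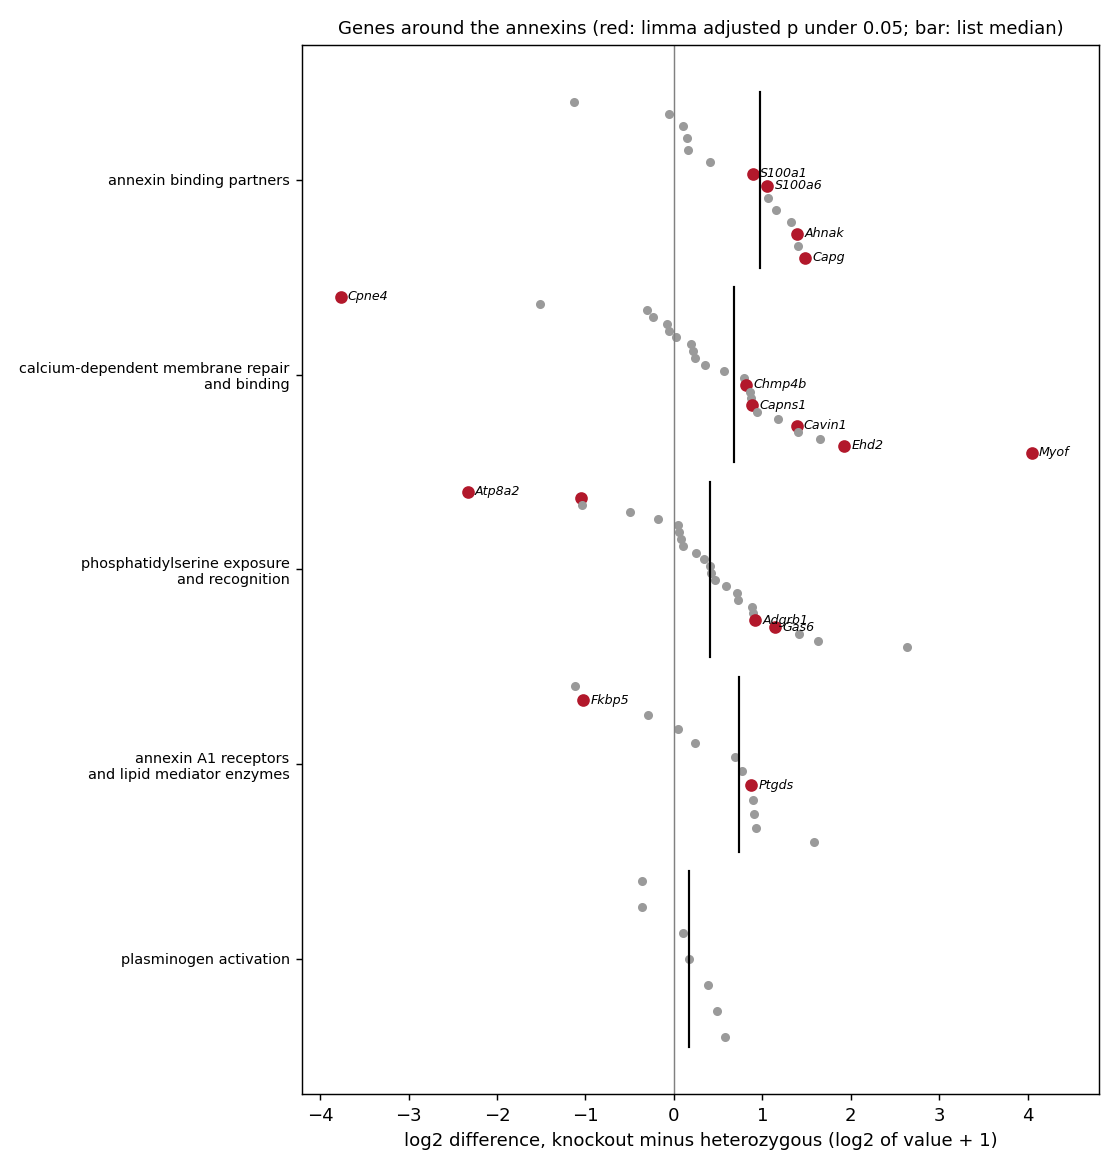
Log2 difference between knockout and heterozygous libraries (x axis) for each tested gene of 5 lists (rows), in red where the limma adjusted p is under 0.05 and grey otherwise, with the list median as a bar and labels on called genes that the text names. The list of binding partners has its called genes to the right of 0, and the lists of membrane repair, phosphatidylserine and lipid mediator genes have called genes on both sides.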

How the data were processed

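RNA of sorted subventricular zone cells was sequenced in 6 libraries, 3 per genotype, from at least 35 ng of RNA with SMART-Seq v4 and Nextera XT, per the labels' protocols. Per the submitters' processing notes the authors used HISAT2, featureCounts (Subread) and DESeq2 on GRCm38; versions, strand setting and annotation are not given in the sources used here. The deposited values per library, and their mean, are a normalized signal, read counts divided by 1 size factor per library. The authors' log2 fold change with its standard error, the p-value and adjusted p-value, and the Wald and weight scores were deposited beside them. Dividing each library by its smallest step gave whole reads for 100% of values, within 0.001 reads, and so its depth.

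The members and gene lists were chosen with earlier results of these data known. limma 3.58.1 in R 4.3.3, with a mean-variance trend, was run on log2(value + 1) for rows with a mean of at least 10, with genotype as the only term, two-sided, with Benjamini-Hochberg adjustment over all 18227 rows. Fold changes on this scale understate those of low genes. All genes were fitted together, and edgeR 4.0.16, DESeq2 1.42.0, other pseudocounts and filters, leaving out each library, and a replicate block were tried. The methods were tested on simulated data. Positions and exon lengths, joined over all annotated exons of a gene, came from GENCODE M21. Promoters came from RefSeq, GRCm38.p6, and the windows compared left out 1 chromosome. Named genes were all members, up to 3 called genes per direction of each list with the smallest p (or the single smallest), S100a10, S100a11, S100a6, Fpr1 and Fpr2, and the 2 most alike genes per separated member; Fpr3, Capg, Cavin1, Chmp4b, Anxa11os and the TATAAA letters were added after their values were seen. Planned comparisons of protein sequence were not made, and 1 gene that the rule names is not reported here. The samples of a genotype are called biological replicates in the design text.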

Additional observations from a re-analysis of the deposited data

How the results depend on the processing

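All 10 annexins kept a positive log2 difference under every alternative except the one without knockout A, where Anxa3 and Anxa9 were below 0 (-0.24 and -0.06). With 1 library left out, the ranges of calls were 635 to 4019 for all genes, 0 to 9 for the annexins, 1 to 6 for binding partners, 0 to 7 for membrane repair, 0 to 4 for phosphatidylserine, 0 to 4 for lipid mediator and 0 to 1 for plasminogen genes. The main fit called 2883 genes in all. Dropping heterozygous A, B or C gave 906, 635 or 2336, and dropping knockout A, B or C gave 2230, 697 or 4019. DESeq2 called 4380 genes in all, 8 annexins, 8 phosphatidylserine, 5 lipid mediator and 1 plasminogen gene. At adjusted p under 0.01 the counts were 618 for all genes, 0 for annexins, 1 for partners, 0 for membrane repair, 1 for phosphatidylserine and 0 for lipid mediator genes. The lipid mediator count of 2 was 1 with a pseudocount of 0.5, without the filter on low values, with edgeR under TMM or upper-quartile scaling, and with a replicate block, and 4 with a mean of at least 50. Deviations of same-letter libraries from the genotype means correlated at -0.07, 0.02 and -0.10, and those of different letters at -0.09 to 0.16. No pairing by letter shows in these values, which cannot tell whether same-letter pools were prepared together. A replicate block left 2310 of all genes and 5 annexins called, with Anxa1 in place of Anxa7, and put Ptgds at adjusted p = 0.065. No partner gene named here changed direction under these alternatives, which were not run singly for Capg, Cavin1 and Chmp4b. The causes of these shifts were not tested. Depth limits Anxa13, Fpr2 and Cpne4, which rest on few reads.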
